A study of Mus musculus with 6 samples.

Results

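AP-1 is a family of transcription factors that bind DNA as pairs, and the 10 genes described here encode its FOS subunits (Fos, Fosb, Fosl1, Fosl2), its JUN subunits (Jun, Junb, Jund), the related factor ATF3 (Atf3) and the small factors BATF and BATF3 (Batf, Batf3). The gene lists and markers used below and these 10 members were chosen by gene symbol, with earlier results of these data known. All 10 were found, each with 1 probe set, among 23185 named genes. They were measured in a mouse line of group 2 innate lymphoid cells (ILC2s), tissue lymphocytes that lack antigen receptors and make the type 2 cytokines IL-5 and IL-13. The line came from C57BL/6J mice and was grown in IL-2 and IL-33, each at 10 ng/ml. All cells of both groups received a lentiviral CRISPR vector with GFP, and GFP-positive cells were sorted on day 6 after transduction. The control group (3 arrays) carried a guide without a target, and the other group (3 arrays) carried a guide against Myc and is called here the knockout-labelled group.

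FOS, JUN, ATF and BATF proteins share a basic region that touches DNA and a leucine zipper through which they pair. FOS proteins need a JUN partner, whereas JUN proteins can also pair with each other. Fos, Fosb, Jun, Junb and Atf3 are classical immediate early genes, whose short-lived transcripts appear soon after a stimulus without new protein synthesis. BATF proteins lack a transactivation domain, pair with JUN proteins and bind with IRF4 at composite sites in lymphocytes. In ILC2s, the receptor for IL-33 signals through MyD88 to NF-kappaB and to the kinases that act on AP-1.

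The values are log2 RMA values, a scale on which each array was brought to a common distribution by the authors. Array medians were 3.27 to 3.34 and lower quartiles 2.04 to 2.13, so a value near or below these is close to background and allows no exact fold. The labels do not state whether arrays of a group are separate transductions, and p-values therefore cover only the spread between these arrays. The SD of the log2 difference between a pair of arrays over all probe sets was 0.203 to 0.211 among controls, 0.225 to 0.238 within the knockout-labelled group and 0.252 to 0.280 between groups. ILC2 markers (15 measured) had a mean level of 6.91 to 6.95 in controls and 6.91 to 7.01 in knockout-labelled arrays. At an unadjusted limma p below 0.05, 5 were higher (Icos, Il13, Il2ra, Il5 and Kit) and 3 lower (Arg1, Gata3 and Il7r). Il5 alone had an adjusted p below 0.05, Gata3 was at 9.57 and 9.32, and the part of these differences in the results was not tested. T cell markers (8 measured) averaged 3.22 to 3.31 and 3.16 to 3.28, B cell markers (4 measured) 2.34 to 2.41 and 2.30 to 2.46, and in the T cell list Cd3e lay at 2.15 and 1.98 and Cd3g at 5.47 and 5.04 (1 of 8 lower at an unadjusted p below 0.05). Macrophage and monocyte markers (5 measured) had summed log2 levels of 18.0 to 18.5 in controls and 16.9 to 17.8 in knockout-labelled arrays, with 1 of 5, Itgam, lower at an unadjusted p below 0.05 and the defining marker Csf1r at 2.24 in both groups; the part of such cells in the results was not tested. Markers of natural killer cells (6 measured, mean 3.95 to 4.09 and 4.06 to 4.15), of mast cells and basophils (6 measured, 2.69 to 2.74 and 2.65 to 2.69) and of fibroblasts and epithelium (6 measured, 3.87 to 3.95 and 3.91 to 4.05) overlapped between groups in their means. Single markers in these lists differed at an unadjusted p below 0.05 in limma. Gzma (6.52 and 6.85), Ncr1 (1.82 and 2.04), Ms4a2 (1.64 and 1.86), Epcam (6.32 and 6.56) and Col1a1 (3.45 and 3.65) were higher. Mcpt8 (8.0 and 7.53) was lower. Ncr1 and Ms4a2 lay near or below the lower quartiles, and the part of these markers in the results was not tested. Myc itself was not lower in the knockout-labelled arrays. It was at 9.27, 9.33 and 9.39 in controls and 9.55, 9.79 and 9.73 in the knockout-labelled arrays (log2 difference 0.36 ± 0.080 SE; limma adjusted p = 0.127), so every direction below rests on the labels alone. The arrays measured RNA only, so the Myc level does not show whether the gene was edited or its protein lost.

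The inducible FOS genes were much higher in the knockout-labelled arrays. Fos, the founding member of the family, was at 4.76 in each of the 3 controls and at 6.30, 7.63 and 8.25 in knockout-labelled arrays 1, 2 and 3. Every knockout-labelled array lay above every control, by at least 1.54 log2 units, but the 3 knockout-labelled values themselves spanned 1.95 units. The means were 4.76 ± 0.00054 and 7.40 ± 0.99 (SD, n = 3 each), a log2 difference of 2.63 ± 0.45 (SE), or 6.20-fold (95% confidence interval 2.93 to 13.1). Limma assumes the same variance in both groups, and these SDs differ greatly, so the SE and interval may be too narrow. The same limit holds for Fosb (SD 0.10 in controls and 0.92 in knockout-labelled arrays), Fosl1 (0.071 and 0.46) and Jun (0.28 and 0.65). This was the largest positive log2 difference among the 23185 genes in the deposited values. It missed the threshold of a Benjamini-Hochberg adjusted p of 0.05 (limma adjusted p = 0.0796). A bulk value cannot tell more cells with the transcript from more transcript per cell.

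Fosb, which encodes a FOS protein that also exists as a stable truncated form, followed the same array order. Its control values were 3.43, 3.39 and 3.59, close to the array medians, and its knockout-labelled values were 4.58, 5.59 and 6.41. The log2 difference was 2.05 ± 0.42 (limma adjusted p = 0.107), the rank 4 value among all positive differences. Since the controls lie near background, this difference describes the RMA values and gives no exact fold. Fosl1, the gene of FRA-1, was at 4.88, 4.94 and 4.80 in controls and at 5.45, 6.14 and 6.31 in the knockout-labelled arrays. The groups did not overlap, and the log2 difference was 1.09 ± 0.21, or 2.13-fold (95% confidence interval 1.49 to 3.05; limma adjusted p = 0.0998).

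Fosl2, the gene of the FOS subunit FRA-2, lay on the other side. Its control values were 7.82, 7.82 and 7.80, and its knockout-labelled values were 7.24, 7.50 and 7.43. All 3 knockout-labelled arrays were below all 3 controls. The log2 difference was −0.43 ± 0.079 (limma adjusted p = 0.0915).

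Among the JUN genes, Jun and Junb were higher and Jund was not separated between groups. Jun, the prototype partner of FOS, was at 5.56, 5.004 and 5.30 in controls and at 5.62, 6.42 and 6.91 in the knockout-labelled arrays. The groups were separated only narrowly, by 0.065 log2 units between control array 1 and knockout-labelled array 1. The log2 difference was 1.03 ± 0.32, or 2.04-fold (95% confidence interval 1.20 to 3.48; limma adjusted p = 0.230). Junb, a JUN subunit that is abundant in activated lymphocytes, was at 7.79, 7.70 and 7.64 in controls and at 7.80, 8.24 and 8.26 in the knockout-labelled arrays. Its lowest knockout-labelled value exceeded the highest control by 0.0070, far less than the spread within either group (log2 difference 0.38 ± 0.13; limma adjusted p = 0.261). Jund, the JUN gene with the steadiest expression in most cells, was at 7.95, 7.93 and 7.95 in controls and at 7.73, 8.01 and 8.08 in the knockout-labelled arrays. Its groups overlapped, with a log2 difference of −0.0045 (95% confidence interval −0.24 to 0.23).

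**Figure D1:**
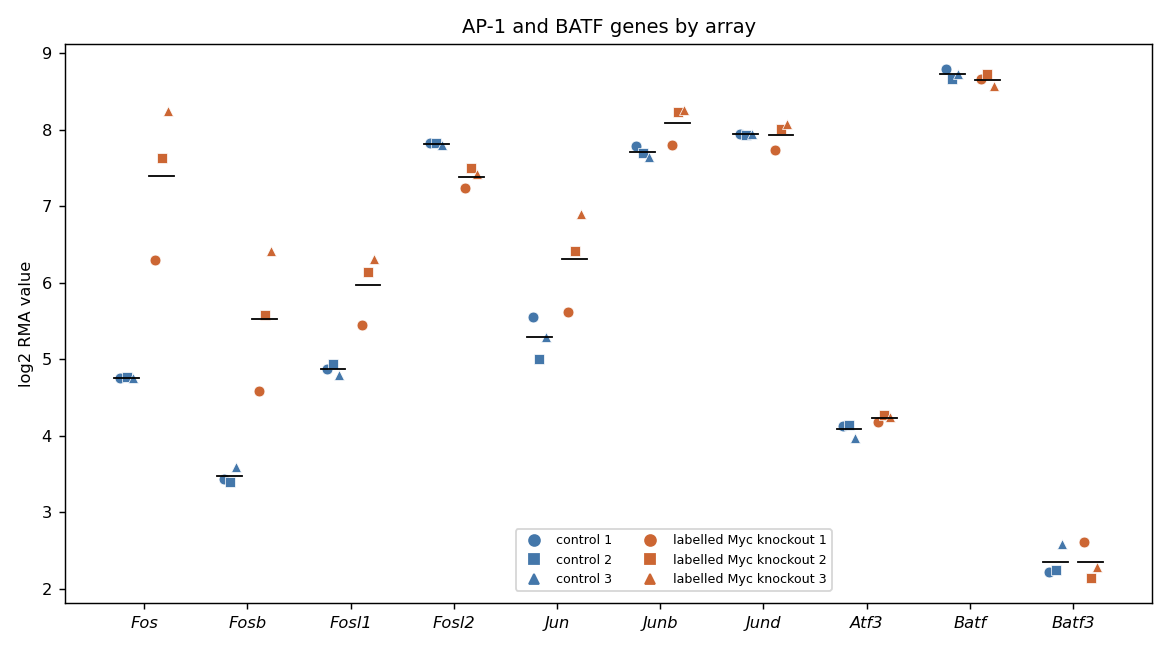
Log2 RMA value of each AP-1 and BATF gene (horizontal axis) in 3 control arrays (blue) and 3 knockout-labelled arrays (orange), with circle, square and triangle for replicates 1, 2 and 3 and a bar for each group mean. Fos, Fosb, Fosl1 and Jun show tight or moderate control values and knockout-labelled values that are lowest in array 1 and highest in array 3. Jund has the same order of knockout-labelled arrays but level group means (7.94 in both), while Batf stays level.

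The promoters of Fos, Fosb, Jun and Junb, which were higher together, are shown with that of Fosl2, which was lower, so that the sequences can be read beside their values. Each is the 250 bases before the RefSeq gene start (GRCm38.p6), 5′ to 3′ on the gene's strand. Capitals mark TGACG, the half-site of the cAMP response element, and in Jun the element TGACATCA.
Fos (chr12:85473640-85473889, plus strand): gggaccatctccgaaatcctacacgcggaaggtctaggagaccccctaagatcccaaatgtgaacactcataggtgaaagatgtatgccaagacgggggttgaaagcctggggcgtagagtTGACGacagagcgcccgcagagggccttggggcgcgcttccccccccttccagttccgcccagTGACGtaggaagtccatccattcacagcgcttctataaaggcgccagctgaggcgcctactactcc
Fosb (chr7:19310046-19310295, minus strand): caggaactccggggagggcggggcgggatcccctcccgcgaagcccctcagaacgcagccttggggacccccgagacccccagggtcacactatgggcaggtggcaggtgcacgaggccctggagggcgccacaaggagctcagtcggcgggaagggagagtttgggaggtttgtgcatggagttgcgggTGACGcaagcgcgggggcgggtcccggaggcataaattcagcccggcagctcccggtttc
Jun (chr4:95052223-95052472, minus strand): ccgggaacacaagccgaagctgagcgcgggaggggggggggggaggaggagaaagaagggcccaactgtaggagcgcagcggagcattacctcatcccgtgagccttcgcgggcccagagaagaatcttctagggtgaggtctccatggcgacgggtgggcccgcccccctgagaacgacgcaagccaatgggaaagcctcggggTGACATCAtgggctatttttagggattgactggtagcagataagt
Junb (chr8:84978749-84978998, minus strand): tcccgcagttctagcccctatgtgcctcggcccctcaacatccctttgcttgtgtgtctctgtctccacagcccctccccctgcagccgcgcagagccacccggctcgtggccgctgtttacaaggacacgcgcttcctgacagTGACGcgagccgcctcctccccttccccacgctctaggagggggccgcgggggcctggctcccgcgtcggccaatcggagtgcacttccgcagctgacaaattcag
Fosl2 (chr5:32136222-32136471, plus strand): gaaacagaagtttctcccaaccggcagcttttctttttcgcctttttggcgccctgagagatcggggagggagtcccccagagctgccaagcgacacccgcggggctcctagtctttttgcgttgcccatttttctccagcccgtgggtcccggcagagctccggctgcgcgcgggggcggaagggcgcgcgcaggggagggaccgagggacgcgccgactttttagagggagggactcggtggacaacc
Windows were found for 9 of the 10 members, all but Fosl1. On either strand, TGACG stood in 5 of them (Fos, Fosb, Junb, Atf3 and Batf), and in 17.8% of 32851 windows of the same length over all genes. In Fos it occurred at 129 and 66 bases before the start, in Fosb at 60 and in Junb at 106. TGACATCA stood in 1 member window, that of Jun, 45 bases before its start, and in 2.93% of all windows. Both motifs were chosen after the windows had been read. The full AP-1 site TGACTCA stood in 0 of the 9 windows (4.46% of all), the full cAMP response element TGACGTCA in 0 (1.55% of all), and the E-box CACGTG, to which MYC and MAX can bind, in that of Batf3 alone (6.02% of all). TGACG is part of TGACGTCA.

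The BATF genes and Atf3 differed little between groups. Batf, which is required for several effector lymphocyte programmes, was bright in this line, at 8.79, 8.66 and 8.74 in controls and 8.67, 8.73 and 8.57 in the knockout-labelled arrays. The groups overlapped, and the 95% confidence interval of the log2 difference (−0.074) ran from −0.24 to 0.088. Batf3, known for its role in cross-presenting dendritic cells, stood near the lower quartiles, at 2.21, 2.25 and 2.59 in controls and 2.62, 2.15 and 2.29 in the knockout-labelled arrays. At this level a lack of change cannot be shown (log2 difference −0.0010, 95% confidence interval −0.36 to 0.36). Atf3, a stress-induced factor, was at 4.13, 4.14 and 3.98 in controls and at 4.18, 4.27 and 4.25 in the knockout-labelled arrays. Its groups were separated by 0.040, with a log2 difference of 0.15 ± 0.068 (limma adjusted p = 0.369).

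**Figure D2:**
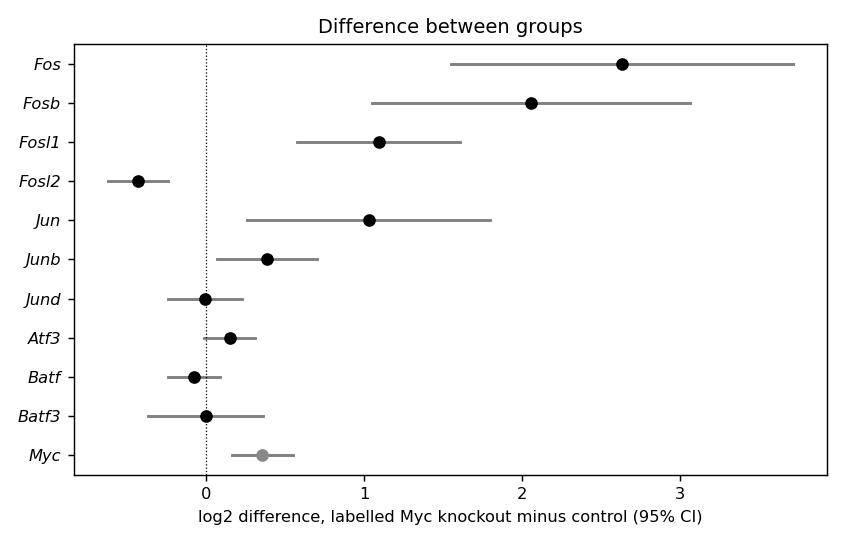
Log2 difference (knockout-labelled minus control) of each AP-1 and BATF gene and of Myc, from limma over all named genes; points are estimates and lines 95% confidence intervals. Fos (2.63) and Fosb (2.05) lie far to the right with wide intervals, Fosl2 (−0.43) is the only member whose interval lies below 0, and the intervals of Jund, Atf3, Batf and Batf3 include 0.

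As a group, 0 of the 10 members passed the adjusted threshold in either direction, where 0.254% of all genes passed as higher and 0.198% as lower. At an unadjusted p under 0.05, 5 members were higher (Fos, Fosb, Fosl1, Jun and Junb) and 1 was lower (Fosl2), against 6.97% and 7.91% of all genes. The groups did not overlap for 6 members that were higher and 1 that was lower, against 9.25% and 10.6% of all genes. For each of these 7 members p was 0.1 by an exact permutation test, two-sided, which is the lower limit for 3 arrays against 3. Log2 differences above 1 were found for 4 members, Fos, Fosb, Fosl1 and Jun, and for 51 genes in the whole table (0.220%). The median log2 difference over the members was 0.27 and that over all genes 0.0077.

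The calls moved with the variance model and with the genes tested. When the prior variance was allowed to follow intensity, Fos and Fosl2 passed (limma adjusted p = 0.0420 and 0.0403). Calls over all 23185 genes also rose, from 59 higher and 46 lower in the reported fit to 162 and 208. Limma was also run only on genes whose mean over the 6 arrays was at or above the median, which 9 members met and Batf3 did not. There Fos, Fosb, Fosl1 and Fosl2 passed (adjusted p = 0.0264, 0.0397, 0.0357 and 0.0310). Among the 11593 genes of that fit, 204 passed as higher and 345 as lower. Without control replicate 2, control replicate 3 or knockout-labelled replicate 2, Jun and Junb were no longer under an unadjusted p of 0.05, which left 3 members higher. Without knockout-labelled replicate 3 Junb alone was lost (4 higher), and under cyclic loess Atf3 was added (6 higher).

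The knockout-labelled arrays differed among themselves in a similar order across most members. Knockout-labelled array 1 was the lowest of its group for 8 of the 10 members, the exceptions being Batf and Batf3, and array 3 was the highest for 6. Over all genes, array 1 was the lowest of its group for 38.5% and array 3 the highest for 29.7%. Relative to the control mean, Fos was higher by 1.54, 2.87 and 3.49 log2 units in arrays 1, 2 and 3, Fosb by 1.11, 2.11 and 2.94, Fosl1 by 0.57, 1.27 and 1.44, and Jun by 0.34, 1.13 and 1.62. Array 1 was also the nearest to the control mean for Junb (0.086, 0.53 and 0.54) and Atf3 (0.099, 0.19 and 0.16). For Fosl2 (−0.58, −0.32 and −0.39) and Jund (−0.21, 0.064 and 0.14) array 1 was instead the farthest from it. Without knockout-labelled array 1 the difference of Fos was 3.18 (limma adjusted p = 0.0618), and without array 3 it was 2.21 (adjusted p = 0.162).

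The 3 genes with array patterns closest to Fos were other immediate early genes. Likeness was measured as the root mean square distance of log2 values over the 6 arrays, each gene centred on its own mean, among 10684 protein-coding genes at or above the median level. Values were not scaled, so this distance also reflects the size of a difference. Genes with the same array order but smaller steps lie farther from Fos. The nearest were Egr1, a zinc finger factor induced through the same serum response pathway as Fos (distance 0.155), Fosb (0.310) and Egr2, a relative of Egr1 (0.488). Egr1 was at 5.39, 5.02 and 5.15 in controls and at 6.54, 7.89 and 8.39 in the knockout-labelled arrays. Its log2 difference was 2.42 ± 0.44 (limma adjusted p = 0.0894).

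Of 24 other immediate early genes, all measured, 0 passed over all genes, and the median log2 difference was 0.34. With unadjusted p below 0.05, 9 were higher and 1 was lower, against 6.97% and 7.91% of all genes. Ier2, a short-lived nuclear protein gene, was at 5.41, 5.42 and 5.12 in controls and at 6.10, 7.13 and 7.46 in the knockout-labelled arrays (log2 difference 1.58 ± 0.33; limma adjusted p = 0.114). Knockout-labelled array 1 was the lowest of its group for 22 of the 24 genes and array 3 the highest for 16. Not all 24 were higher. Nr4a3, an orphan nuclear receptor gene named after its value was seen, stood at 2.73 ± 0.24 in controls and 2.28 ± 0.10 in the knockout-labelled arrays, both below the array medians, and Nfkbia, the NF-kappaB inhibitor gene, was at 9.69 ± 0.069 in controls and 9.53 ± 0.10 in the knockout-labelled arrays.

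**Figure D3:**
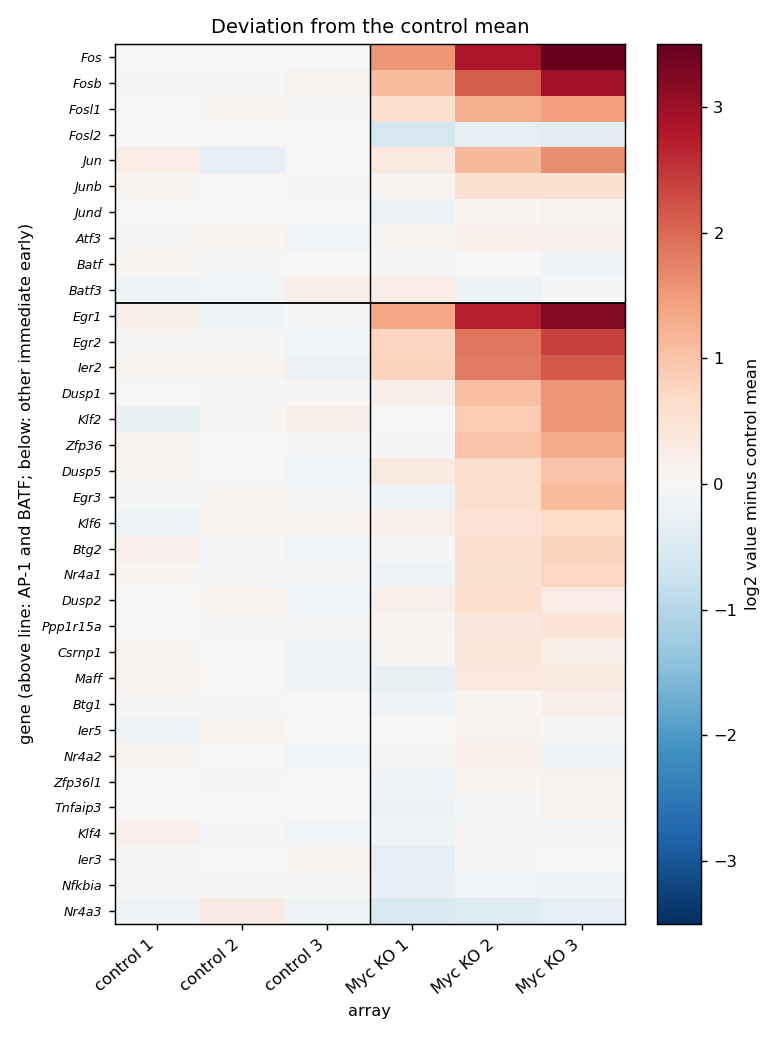
Deviation of each array from the control mean, in log2 units (colour), for the 10 AP-1 and BATF genes (above the line) and 24 other immediate early genes (below it, ordered by log2 difference), with the 6 arrays along the horizontal axis. Fos, Fosb, Egr1, Egr2 and Ier2 are deepest in knockout-labelled array 3 and palest in array 1 of that group, and the 3 control columns are near 0.

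Genes upstream of AP-1 were mostly lower. Of 18 measured kinases and transcription factors that lead to AP-1, 13 had negative log2 differences (median −0.15). By unadjusted p below 0.05, 9 were lower and 0 higher, against 7.91% and 6.97% of all genes. Past the adjusted threshold 1 fell, against 0.198% of all genes. That gene was Map3k1, which encodes a kinase above JNK. It was at 6.62, 6.78 and 6.61 in controls and at 5.96, 6.02 and 6.16 in the knockout-labelled arrays, a log2 difference of −0.62 ± 0.080 (limma adjusted p = 0.0405). Every measured gene of this list lay at or above the median level, while the shares of all genes include dimmer ones. In the limma fit of genes at or above that level, 345 of 11593 genes passed as lower and 204 as higher. The median log2 difference there was −0.030. Among 9 measured genes for the turnover or modification of AP-1 proteins, 0 passed, 3 were higher and 0 lower by that unadjusted p, and the median was −0.086. Trib1, a pseudokinase gene of the COP1 ubiquitin ligase pathway, was at 4.60 ± 0.098 in controls and 4.99 ± 0.18 in the knockout-labelled arrays. Cops5, the gene of the JUN-binding signalosome subunit JAB1, was at 7.38 ± 0.095 and 7.59 ± 0.032 (limma adjusted p = 0.180 and 0.253).

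The remaining basic leucine zipper genes were nearly level. Of 23 measured, 0 passed, and the median log2 difference was −0.014. Counts by unadjusted p below 0.05 were 0 higher and 3 lower, against 6.97% and 7.91% of all genes. Ddit3, the gene of the stress factor CHOP, was at 5.71 ± 0.12 in controls and 5.31 ± 0.069 in the knockout-labelled arrays, and Nfil3, a factor needed for innate lymphoid development, was at 8.38 ± 0.025 and 8.21 ± 0.061 (limma adjusted p = 0.0999 and 0.250). Jdp2, which encodes a repressor that pairs with JUN proteins, is the 1 protein-coding gene between Fos and Batf on chromosome 12. It was at 6.83 ± 0.039 in controls and 6.80 ± 0.18 in the knockout-labelled arrays. Fos was thus high in the knockout-labelled arrays while both of these neighbours had log2 differences within 0.1 of 0.

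Factors that bind beside AP-1 or BATF at composite sites were mostly lower, apart from Irf4. Of 14 measured, 12 had negative log2 differences (median −0.16), and 1 rose past the adjusted threshold, against 0.254% of all genes. An unadjusted p below 0.05 was met by 1 that was higher and 6 that were lower, against 6.97% and 7.91% of all genes. Every measured gene of this list also lay at or above the median level, where the median log2 difference over all genes was −0.030. The gene that rose was Irf4, the partner of BATF with JUN, at 7.08, 6.76 and 6.93 in controls and 7.58, 7.75 and 7.79 in the knockout-labelled arrays (log2 difference 0.78 ± 0.10; limma adjusted p = 0.0405). The Irf4 difference came with a Batf log2 difference of −0.074, whose groups overlapped.

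Genes known as AP-1 or BATF targets in lymphocytes were mostly higher. Of 26 measured, 20 had positive log2 differences (median 0.13), and 12 were higher and 0 lower by unadjusted p below 0.05. The shares of all genes at that p were 6.97% and 7.91%. Past the adjusted threshold 4 rose and 0 fell, against 0.254% and 0.198% of all genes. The 4 were the cytokine genes Il9, Il17a, Il5 and Il21, with log2 differences of 1.41 ± 0.13, 0.95 ± 0.11, 0.49 ± 0.061 and 0.78 ± 0.10 (limma adjusted p = 0.0205, 0.0353, 0.0386 and 0.0419). Il21 lay at 2.92 ± 0.16 in controls and 3.70 ± 0.11 in the knockout-labelled arrays, and Il17a at 2.84 ± 0.17 and 3.79 ± 0.14, so the controls of both lie below the array medians and their differences give no exact fold. Il17a is also 1 of 4 measured ILC3 markers, whose summed log2 level was 6.83 to 7.33 in controls and 8.08 to 8.68 in the knockout-labelled arrays (log2 values summed over Il17a, Il22, Il23r and Ncr1), with 2 of the 4, Il17a and Ncr1, higher by unadjusted p below 0.05. The ILC3 markers Il22, Il23r and Ncr1 stood at 0.77, 1.65 and 1.82 in controls and 0.80, 1.83 and 2.04 in the knockout-labelled arrays. These means lie near or below the lower quartiles, and the part of ILC3 cells in the result was not tested. Leaving out any 1 array ended the calls of Map3k1, Irf4 and these 4 cytokine genes (limma adjusted p = 0.0701 to 0.183). In these fits 2 genes of the whole table passed without knockout-labelled array 1, 1 without array 3 and 0 without any other array. A replicate block also ended all these calls (limma adjusted p = 0.101 to 0.173), and 0 genes of the whole table passed under it. That of Il5 was also lost when each array was centred on its median (limma adjusted p = 0.05005, log2 difference 0.46).

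**Figure D4:**
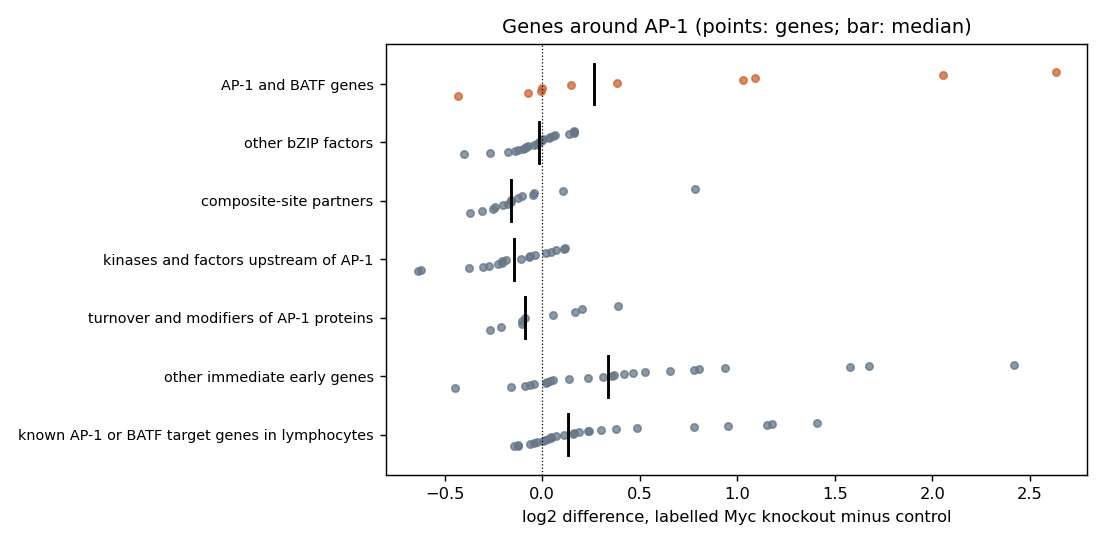
Log2 difference (knockout-labelled minus control) of each gene in the AP-1 and BATF set (orange) and in the 6 lists around it (grey); each point is a gene and each black bar the list's median. The AP-1 set and the immediate early list reach beyond 2, while most upstream kinases lie below 0 (median −0.15).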

How the data were processed

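Total RNA of 6 samples was measured on Affymetrix arrays, and samples were grouped by their titles. The authors deposited log2 values made with RMA, per the submitters' processing notes, which also name limma 3.14.4. RMA sets each value relative to the other arrays and removes a shift common to all transcripts. Probe set names are an Entrez Gene ID followed by _at, so a gene has 1 probe set by construction. Which array version, release of the probe set definition and genome build were used is not given in the sources used here. Of 25206 probe sets, 23185 had 1 symbol in the annotation table, 0 had several and 2021 had none. All 23185 were fitted with limma 3.58.1 in R 4.3.3 (lmFit and eBayes, two-sided, no covariate, no filter), with Benjamini-Hochberg adjustment over all of them and a threshold of 0.05. Single values were tested with exact permutation tests in scipy 1.17.1. The procedure was tested on simulated data with independent genes and the same variance in both groups. Genes such as Fos, with unequal SDs in the groups, are not covered by that test.

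The members, the 6 gene lists (122 entries, 114 measured after a search of older symbols; the rest are not analysed here) and the markers were chosen with earlier results of these data known. Genes were named by rule: the 10 members, Myc, list entries past the threshold or else the 2 with the smallest p, and the 3 patterns nearest to the member with the smallest p. Other genes were named after their values were seen. Alternatives were a replicate block, a trended or robust prior, array weights, median centring, cyclic loess, a filter on dim genes, all probe sets and each array left out. Promoter sequences are RefSeq's. Figures were drawn with matplotlib 3.10.9.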

Additional observations from a re-analysis of the deposited data

How the results depend on the processing

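Precision is limited by having only 3 arrays in each group. The count of members past the threshold was 0 in the reported fit and under the replicate block, the robust prior, array weights, median centring, cyclic loess and all probe sets. It was 2 when the prior variance followed intensity, where 162 of all genes were higher and 208 lower (59 and 46 in the reported fit). It was 4 when only genes at or above the median level were tested, where 204 and 345 of 11593 genes were called. In that fit Batf3 dropped out, the members' median became 0.38 and Myc also passed (log2 difference 0.36, limma adjusted p = 0.0487). Leaving out 1 array gave 0 members past the threshold each time, and medians of 0.22 to 0.35. Over all genes, 2 passed without knockout-labelled replicate 1, 1 without knockout-labelled replicate 3 and 0 without any other array. With the replicate block the median stayed at 0.27, limma's adjusted p for Fos was 0.173, and 0 genes of the whole table passed, so the calls of Map3k1, Irf4, Il5, Il9, Il17a and Il21 were lost too (adjusted p = 0.101 to 0.173). Same-numbered arrays did not deviate together over all genes (correlations of deviations −0.070, −0.012 and −0.017). This shows no pairing by number, but whether same-numbered arrays share a culture or batch was not tested. Directions reversed only for the members near 0. With 1 array left out, Batf3 ran from −0.13 to 0.12 (positive without control replicate 3 or knockout-labelled replicate 2 or 3) and Jund from −0.074 to 0.099 (positive without knockout-labelled replicate 1), and Jund was at 0.012 with array weights and 0.014 with cyclic loess. The cause of these changes was not tested.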

Other observations

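Cd69, an early activation marker gene of lymphocytes, had the rank 6 pattern in distance to Fos (0.729) and was named after its value was seen. Rank 4 was Ier2, and ranks 5 and 7 to 10 were Cyp3a41b, Vmn1r103, Gm5797, Hamp and Il9, which are not among the immediate early genes listed. Control means of Cyp3a41b (3.03), Vmn1r103 (3.03) and Hamp (3.30) lay near or below the array medians. These genes met the level filter, a mean over all 6 arrays, through their knockout-labelled values (means 4.77, 5.04 and 4.92). Cd69 was at 5.57, 5.52 and 5.52 in controls and at 5.63, 7.04 and 7.48 in the knockout-labelled arrays. Knockout-labelled array 1 was thus within 0.1 of the control mean for Cd69, while it was 1.54 log2 units above the control mean for Fos. Zfp36, which encodes a protein that speeds the decay of inflammatory mRNAs, showed the same picture, with 7.91 in knockout-labelled array 1 inside the control range and 8.86 and 9.14 in the others. Dusp1, a phosphatase gene that restrains MAP kinases, was at 7.16, 8.01 and 8.49 against controls of 6.96, 6.91 and 6.98.

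Ranked by SD within the knockout-labelled group, Fos was 9, Fosb 17 and Jun 83 among 23185 genes. The 3 control values of Fos agreed to within 0.0011, and 572 genes (2.47%) had control values within 0.002 of each other, so such agreement is not particular to Fos.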
